A study of Homo sapiens with 6 samples.

Results

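The histone genes of A549 cells were followed in RNA sequencing counts from cells treated with surfactant protein D and from cells given vehicle. Members were the rows of the count table whose symbol begins with HIST1H to HIST4H, H2AF, H3F3 or H1F, without those whose symbol ends in P or PS, with or without digits, as pseudogene symbols do. The rule took 92 of 57773 rows. Of these, 75 carry HIST symbols, the name given to the replication-dependent genes (6 of H1, 17 of H2A, 23 of H2B, 14 of H3 and 15 of H4), and 16 are variant histone genes (4 of H1, 9 of H2A and 3 of H3). The remaining row, H1FX-AS1, is an antisense RNA and is in neither count. GENCODE 29 types 4 of the HIST rows as pseudogenes, of which only HIST2H2BD had enough counts to be tested.

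A549 is an established human lung adenocarcinoma line with alveolar epithelial features, and all values come from this 1 line. The treated group received recombinant human surfactant protein D (rhSP-D), a secreted carbohydrate-binding protein of lung innate immunity, at 10 µg/ml over 48 h. Controls were given the same volume of the buffer used to elute the purified protein. Each group held 3 samples, both groups grew in RPMI-1640 with fetal bovine serum and antibiotics, and poly(A) RNA was sequenced. Whether the replicates are separate cultures is not stated in the sources used here, so a p-value weighs only the spread among 3 samples a group, and that spread may be technical.

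Histones package DNA into nucleosomes, built of H2A, H2B, H3 and H4, with H1 as the linker on the outside. Replication-dependent genes supply new histones in S phase; they lack introns, and their RNAs end in a short stem-loop, bound by the protein SLBP, in place of a poly(A) tail. Variant genes as a rule lie apart from the histone clusters, give polyadenylated RNA through the whole cell cycle, and supply the histones exchanged outside replication. Poly(A) selection is known to retain little RNA that ends in the stem-loop, so the HIST values below are levels of poly(A)-selected RNA, not of all histone RNA.

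The stem-loop is shown first because it is the mark of replication-dependent histone RNA. It was searched as GG, 2 free bases, CTTTT, 1 free base, AG, 2 free bases and CC, with the free bases of the stem able to pair, on the sense strand of every GENCODE 29 transcript (GRCh38). It was found in 32 HIST genes and in 1 variant gene, H2AFX, against 35 of 19684 protein-coding genes in all (0.178%). Of those 35, 4 are no members, and 2 of the 32 HIST genes, HIST2H2BD and HIST3H2BA, are typed as pseudogenes and so are not among them. Capitals mark the stem-loop in each of these runs, and the lower-case letters are the bases beside it.

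HIST1H2AC: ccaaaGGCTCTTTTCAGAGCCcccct
HIST1H2BD: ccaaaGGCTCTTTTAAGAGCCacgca
HIST2H2AA4: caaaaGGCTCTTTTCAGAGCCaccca
HIST2H3C: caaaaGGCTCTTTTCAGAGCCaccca
HIST1H4H: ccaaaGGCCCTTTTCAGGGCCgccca
HIST2H4A: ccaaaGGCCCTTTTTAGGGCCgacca
H2AFX: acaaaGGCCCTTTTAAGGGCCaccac

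These runs lie at chr6:26124664-26124689 (HIST1H2AC, plus strand), chr6:26158582-26158607 (HIST1H2BD, plus), chr1:149842218-149842243 (HIST2H2AA4, minus), chr1:149840687-149840712 (HIST2H3C, minus), chr6:26285126-26285151 (HIST1H4H, minus), chr1:149833027-149833052 (HIST2H4A, plus) and chr11:119094893-119094918 (H2AFX, minus). The row called HIST2H2AA4 in the count table carries the identifier of the minus-strand locus, which GENCODE 29 names HIST2H2AA3, and the locus given is that of the identifier. The form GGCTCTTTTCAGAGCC was the most frequent, in 17 of the 32 HIST genes. The other 15 differ from it in the stem pairs or in the last base of the loop. The 9 HIST genes with no match among the 41 whose models hold more than coding sequence, and the 32 whose longest model is coding sequence only, are not shown to lack one.

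The level of the HIST genes was low. Over the 6 libraries they took 29228 counts against 248108 for the variant genes, so their sum was 11.5 to 12.1% of the variant sum in every library. Only 22 of 75 HIST genes reached a mean of 1 CPM (a gene's count scaled to the size of its library), 7 reached 10 CPM, and 11 had 0 counts in all libraries. The 3 most counted took 52.71% of all HIST counts. Of the 16 variant genes, 10 lay above 10 CPM, and the other 6 held at most 50 counts in all.

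**Figure D1:**
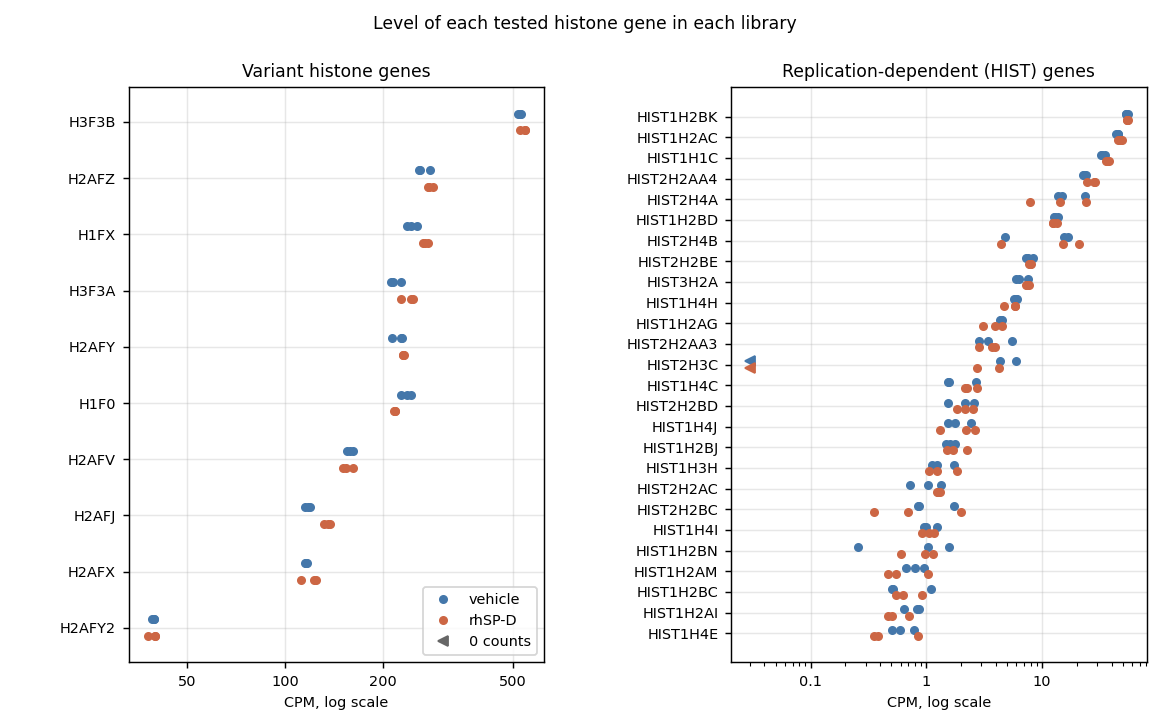
Level in each library (x axes, CPM on log scales) of each tested gene, for 10 variant genes (left) and 26 HIST genes (right), with 3 vehicle and 3 rhSP-D libraries as points. All variant genes lie above 10 CPM, while most HIST genes lie under it and spread more between libraries; arrowheads at the left edge mark libraries in which HIST2H3C had 0 counts.

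After rhSP-D, 4 of 10 tested variant genes passed the test and 1 of 26 tested HIST genes did. H1FX, H3F3A and H2AFJ rose, H1F0 fell, and of the HIST genes HIST2H2AA4 rose; every one of these changes was under 15%. The median log2 change was 0.04 over the tested variant genes, -0.02 over the tested HIST genes and -0.01 over all 15848 genes tested. Of all genes tested 15.9% were called at an adjusted p under 0.05 in edgeR's quasi-likelihood test, 9.31% higher and 6.63% lower. Whether the 2 kinds of histone gene differed in how often they were called was not tested, and their precision was unequal. The standard error (SE) of the log2 change had a median of 0.25 over the HIST genes and 0.03 over the variant genes. The 95% interval lay within 1.2-fold in either direction for 10 of 10 variant genes and 5 of 26 HIST genes. For most HIST genes a change of the size called in the variants is thus not excluded. Depth is not the only source of width: the SE was 0.51 for HIST2H4A and 0.71 for HIST2H4B, near-identical copies, and 0.06 for their sum.

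**Figure D2:**
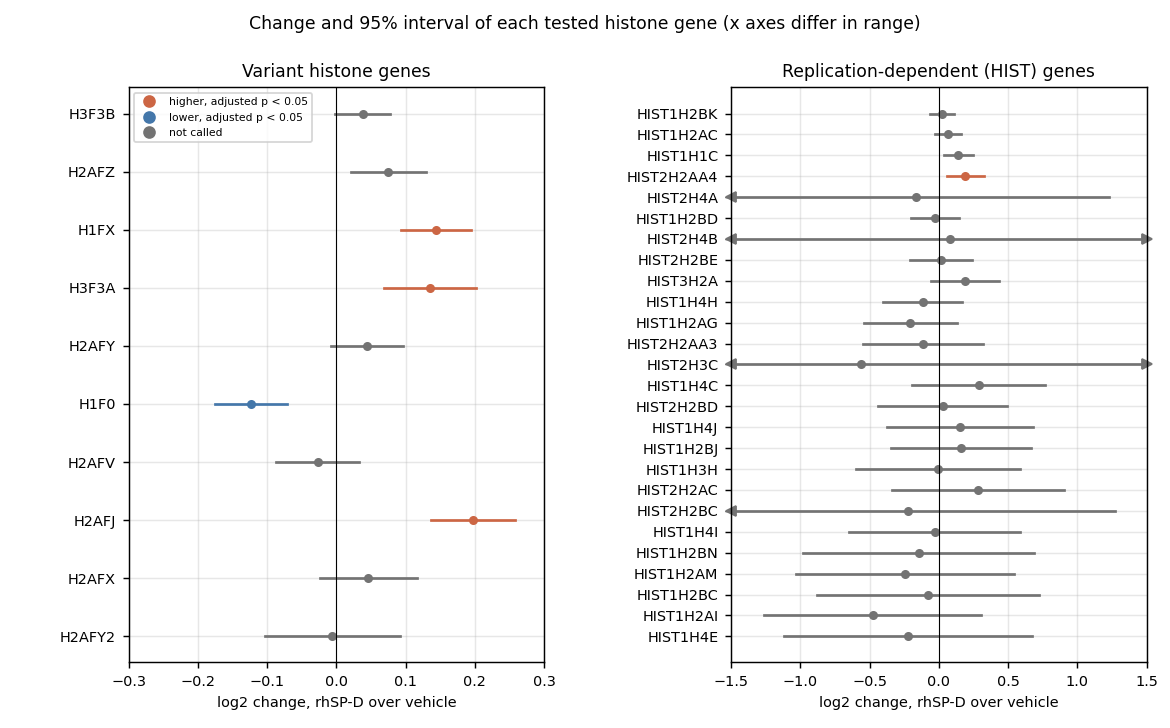
Log2 change of rhSP-D over vehicle (x axes, different ranges) with its 95% interval for each tested variant gene (left) and HIST gene (right), coloured by call. Intervals of the variant genes are narrow, and those of HIST2H4A, HIST2H4B, HIST2H3C and HIST2H2BC run past the axis, as the arrowheads show.

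Among the linker variants, H1FX and H1F0 moved in opposite directions. H1FX (ENSG00000184897, chr3:129314771-129316277, minus strand) encodes H1X, a linker histone that differs in sequence from the other somatic H1 proteins. Its level was 253, 237 and 244 CPM in vehicle replicates 1, 2 and 3, and 274, 264 and 269 CPM in the rhSP-D replicates. All rhSP-D values lay above all vehicle values. It rose by 10.5% (95% interval 6.63 to 14.4%), a log2 change of 0.14 ± 0.02 (SE, n = 3 per group, edgeR adjusted p = 1.19e-04). With offsets that remove trends with gene length and with GC content the call was lost (log2 change 0.04, edgeR adjusted p = 0.391). The GC content of its longest transcript is 68.6%, and its exons overlap those of H1FX-AS1 on the other strand over 345 bases, so that reads of the 2 are separable only where counting used strand, which the sources do not state. H1FX-AS1 was counted at 0.763 to 1.25 CPM and did not pass the test (log2 change 0.28, edgeR adjusted p = 0.621).

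H1F0 (ENSG00000189060, chr22:37805093-37807436, plus strand) encodes H1.0, a linker histone known to accumulate in cells that stop dividing or differentiate. It was measured at 226, 243 and 237 CPM with vehicle and 216, 217 and 217 CPM with rhSP-D. The lowest vehicle value was above the highest rhSP-D value. It fell by 8.19% (95% interval -11.4 to -4.84%), a log2 change of -0.12 ± 0.03 (SE, n = 3 per group, edgeR adjusted p = 8.35e-04). The call held in each of 17 alternatives, with log2 changes from -0.17 to -0.10. The other H1 variants, H1FNT of the testis and H1FOO of the oocyte, were too low to be tested.

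H2AFJ had the largest change among the variants. H2AFJ (ENSG00000246705, chr12:14774383-14778002, plus strand) encodes H2A.J, a variant of mammals that builds up in senescent fibroblasts. It was measured at 114.7, 117.8 and 119.1 CPM with vehicle and 136.8, 135.6 and 131.4 CPM with rhSP-D. The groups were well apart, with a gap wider than the range within either of them. It rose by 14.7% (95% interval 9.95 to 19.6%), a log2 change of 0.20 ± 0.03 (SE, n = 3 per group, edgeR adjusted p = 1.79e-05), and held its call in each of 17 alternatives (0.16 to 0.23). It shares no 50-base word with another gene's transcripts and overlaps no exon of the opposite strand.

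The other H2A variants did not pass the test. H2AFZ, which encodes the H2A.Z found at promoters, came nearest, at 257, 278 and 258 CPM with vehicle and 277, 275 and 285 CPM with rhSP-D. Vehicle replicate 2 lay among the rhSP-D values. The log2 change was 0.07 ± 0.03 (SE, edgeR adjusted p = 0.0545), and H2AFZ stayed uncalled in 15 of 17 alternatives. The lowest adjusted p over the 17 came without vehicle replicate 2, where it passed (0.12, adjusted p = 0.00198). H2AFV, the gene of the second H2A.Z protein, was at 158.5, 154.6 and 161.3 CPM with vehicle and 154.1, 150.1 and 161.4 CPM with rhSP-D, with overlapping groups (log2 change -0.03, edgeR adjusted p = 0.598).

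H2AFX encodes H2A.X, which is phosphorylated around DNA breaks, and is the variant gene whose RNA can end in either way: its model carries the stem-loop shown above and runs on for 1044 bases to a poly(A) signal. Its level was 115.3, 116.9 and 115.6 CPM with vehicle and 123.9, 122.6 and 112.1 CPM with rhSP-D. The rhSP-D libraries lay on both sides of the vehicle values. The log2 change was 0.05 ± 0.03 (SE, edgeR adjusted p = 0.421).

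H2AFY and H2AFY2 encode the macroH2A proteins, which carry a large domain outside the nucleosome. H2AFY was at 213, 227 and 228 CPM with vehicle and 229, 230 and 231 CPM with rhSP-D, so its groups did not overlap although it did not pass (log2 change 0.04, edgeR adjusted p = 0.27). It passed with the length and GC offsets (0.16, adjusted p = 2.66e-05). Its exons overlap other-strand exons, mainly those of C5orf66, over 5477 bases. H2AFY2 lay between 37.8 and 39.99 CPM in all libraries (log2 change -0.01, edgeR adjusted p = 0.959).

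H3.3, the replacement form of H3, is made from H3F3A and H3F3B. H3F3A (ENSG00000163041, chr1:226061851-226072001, plus strand) was measured at 227, 212 and 215 CPM with vehicle and 243, 226 and 246 CPM with rhSP-D. Vehicle replicate 1 lay above rhSP-D replicate 2, so the groups overlapped. It rose by 9.79% (95% interval 4.84 to 14.97%), a log2 change of 0.13 ± 0.03 (SE, n = 3 per group, edgeR adjusted p = 0.00634). The call was lost without vehicle replicate 3 (log2 change 0.13, adjusted p = 0.0657) and without rhSP-D replicate 1 (0.12, adjusted p = 0.0596).

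Part of this count may be tied to a pseudogene, H3F3AP4, with which H3F3A shares 12.9% of its 50-base words. H3F3AP4, a copy of the H3F3A message, was counted at 214 ± 5.31 CPM with vehicle and 231 ± 5.80 CPM with rhSP-D (SD, n = 3), and H3F3A took 49.1 to 52.1% of the pair's counts in every library. Reads of the 2 rows may be split between them by the counting. With both rows summed, an alternative added after seeing the data, the sum rose by 8.56%, a log2 change of 0.12 ± 0.02 (SE, edgeR adjusted p = 8.61e-05), and its groups did not overlap. H3F3B, the most counted histone gene, was at 530, 525 and 518 CPM with vehicle and 527, 545 and 543 CPM with rhSP-D. Its groups overlapped (log2 change 0.04, edgeR adjusted p = 0.199). It passed with the length and GC offsets (0.07, adjusted p = 0.0141).

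In order of level per length, as CPM per kilobase of exon in vehicle, H1FX came first among the variants at 162 ± 5.52, followed by H2AFZ at 114.9 ± 5.01, H1F0 at 100.5 ± 3.69 and H3F3B at 85.5 ± 0.995 (SD, n = 3). H2AFX at 71.8 ± 0.518 and H3F3A at 69.3 ± 2.60 were neighbours within the spread of the latter. Below them lay H2AFJ at 34.9 ± 0.684, H2AFV at 33.3 ± 0.710, H2AFY2 at 19.9 ± 0.163 and H2AFY at 12.5 ± 0.480. Exon length is that of all annotated exons merged, which sets H2AFY, with 17730 bases, low. The place of H3F3A rests on its own row, without H3F3AP4, which was at 214 ± 5.31 CPM in vehicle (SD, n = 3).

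Among the HIST genes, H1 was represented by 1 tested gene of 6. HIST1H1C (ENSG00000187837, chr6:26055787-26056428, minus strand), the gene of linker histone H1.2, was measured at 35.1, 32.3 and 32.8 CPM with vehicle and 35.7, 36.5 and 37.7 CPM with rhSP-D. The groups did not overlap, with vehicle replicate 1 close to rhSP-D replicate 1. It did not pass the test (log2 change 0.14 ± 0.05, SE, n = 3 per group, edgeR adjusted p = 0.065). It did without vehicle replicate 1 (0.17, adjusted p = 0.0418). The other 16 of 17 alternatives left it uncalled, and over all 17 the log2 change ran from -0.02 to 0.17.

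Of 17 H2A genes of this kind 8 were tested, and HIST2H2AA4 was the 1 that passed. HIST2H2AA4 (ENSG00000203812, chr1:149842188-149842736, minus strand) was measured at 22.8, 23.3 and 24.3 CPM with vehicle and 24.4, 28.2 and 28.6 CPM with rhSP-D. Although the groups did not overlap, rhSP-D replicate 1 stood next to the vehicle values. It rose by 14.2% (95% interval 3.97 to 25.5%), a log2 change of 0.19 ± 0.07 (SE, n = 3 per group, edgeR adjusted p = 0.0466). The call held in 5 of 17 alternatives. It was lost without any 1 of vehicle replicates 1, 2 and 3 and rhSP-D replicates 2 and 3 (edgeR adjusted p = 0.0772 to 0.202) and when HIST2H2AA4 was summed with its copy HIST2H2AA3, with which it shares all its 50-base words (log2 change 0.15 ± 0.06, SE, edgeR adjusted p = 0.0778). HIST2H2AA3 took 9.12 to 19.5% of the pair's counts.

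HIST1H2AC, the most counted H2A gene of the clusters, was at 45.9, 44.0 and 45.9 CPM with vehicle and 45.8, 47.1 and 49.5 CPM with rhSP-D. Its groups overlapped (log2 change 0.07 ± 0.05, SE, edgeR adjusted p = 0.377), and it shares 0.4% of its 50-base words with other genes. HIST3H2A was at 7.61, 6.36 and 6.02 CPM with vehicle and 7.69, 7.31 and 7.48 CPM with rhSP-D. Vehicle replicate 1 lay among the rhSP-D values (log2 change 0.19 ± 0.12, SE, edgeR adjusted p = 0.332).

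None of the 8 tested H2B genes, of 23, passed edgeR's test. HIST1H2BK (ENSG00000197903, chr6:27146418-27146798, minus strand), the most counted HIST gene with 21.07% of all HIST counts, was at 55.2, 53.0 and 53.5 CPM with vehicle and 55.2, 54.0 and 54.6 CPM with rhSP-D. The groups overlapped, and the 95% interval of the change, from -4.16 to 7.66%, was the narrowest of the HIST genes (log2 change 0.02 ± 0.04, SE, edgeR adjusted p = 0.78). The sign turned with library totals (log2 change -0.02), after thinning to 1 depth (-0.00221) and with the length and GC offsets, where it passed as lower (-0.17, edgeR adjusted p = 0.00575). For HIST1H2BK these offsets rest on a model of 381 bases that is coding sequence only. Of the gene's 50-base words 74.1% occur in other genes, mostly in H2BFS, whose row held 1 count in all.

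HIST1H2BD was at 13.8, 12.8 and 12.9 CPM with vehicle and 12.5, 13.6 and 12.6 CPM with rhSP-D (log2 change -0.03 ± 0.09, SE, edgeR adjusted p = 0.882). HIST2H2BE was at 7.36, 7.58 and 8.35 CPM with vehicle and 8.04, 7.96 and 7.68 CPM with rhSP-D (log2 change 0.02 ± 0.11, SE, edgeR adjusted p = 0.948). Both genes had overlapping groups.

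Of 14 H3 and 15 H4 genes, 2 and 7 were tested, and none passed edgeR's test. HIST1H4H, an H4 gene with a long 3′ extension, was at 5.71, 6.08 and 5.92 CPM with vehicle and 4.69, 5.89 and 5.87 CPM with rhSP-D. The groups overlapped, with rhSP-D replicate 1 the lowest (log2 change -0.12 ± 0.14, SE, edgeR adjusted p = 0.639). Over all HIST genes 0 were lower in edgeR's test, and 2 were higher and 0 lower at an unadjusted p under 0.05. DESeq2 and limma-voom called 0 HIST genes in either direction, and both called 3 variant genes higher and 1 lower.

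The groups did not overlap for 2 HIST genes, both higher, and for 4 variant genes, 3 of them higher. Of all genes tested 31.5% had groups that did not overlap, 16.2% with rhSP-D above vehicle and 15.4% with it below.

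Several HIST genes are near-identical copies, and their single rows could not be read as levels. HIST2H3A and HIST2H3C, whose models share all their 50-base words, were filled in turn. HIST2H3C had 69, 0 and 87 counts with vehicle and 0, 78 and 55 with rhSP-D, while HIST2H3A had 0, 79 and 0 with vehicle and 115, 0 and 0 with rhSP-D. In each library 1 of the 2 rows took every count and the other had 0. The sum was 69, 79 and 87 counts with vehicle and 115, 78 and 55 with rhSP-D, which did not pass the test when the copies were summed (log2 change -0.32 ± 0.18, SE, edgeR adjusted p = 0.252).

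HIST2H4A and HIST2H4B, also without a 50-base word of their own, split their counts unevenly. HIST2H4A took 82.9, 46.9 and 47.5% of the pair's counts with vehicle and 27.3, 48.1 and 84.5% in rhSP-D. As single rows they spread widely, with HIST2H4B at 4.85, 17.0 and 15.4 CPM with vehicle and 20.9, 15.4 and 4.42 CPM with rhSP-D. The sum was steady, at 28.3, 31.9 and 29.3 CPM with vehicle and 28.7, 29.6 and 28.4 CPM with rhSP-D (log2 change -0.06 ± 0.06, SE, edgeR adjusted p = 0.582). The division of the counts between copies thus varied between libraries of the same group, and the SE of a copy's own row held that variation.

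The same was seen in the testis variants H2AFB1, H2AFB2 and H2AFB3, which sit in copies on chromosome X. Their sum was 5, 9 and 12 counts with vehicle and 23, 8 and 13 with rhSP-D, and in each library 1 row held all of them: H2AFB2 in vehicle replicate 3 and rhSP-D replicate 2, and H2AFB3 in the other 4. Of the tested HIST genes with a gene model, 9 of 24 share over 50% of their 50-base words with other genes, against 0 of 10 tested variant genes.

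**Figure D3:**
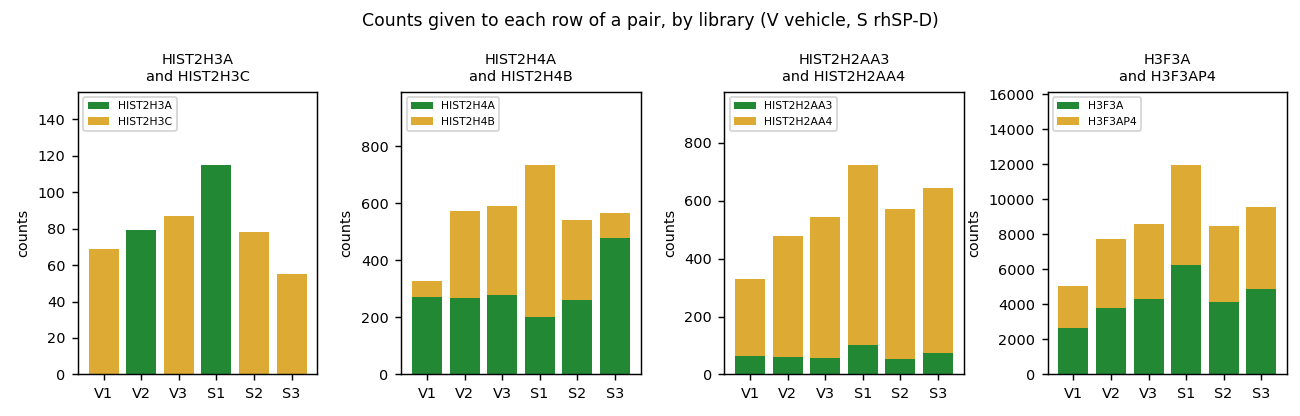
Counts in each library (x axis, vehicle V and rhSP-D S replicates) given to the 2 rows of each copy pair, stacked as bars from 0. The rows of HIST2H3A and HIST2H3C alternate between all and none, those of HIST2H4A and HIST2H4B change their shares, HIST2H2AA3 takes 9.12 to 19.5% of its pair, and H3F3A and H3F3AP4 divide evenly in all 6 libraries.

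Sums over a class do not depend on how counts were split between its members, though they do on the split between H3F3A and H3F3AP4, which is no member. All differences between class sums were under 10%. The 75 HIST genes summed to 257, 251 and 254 CPM with vehicle and 256, 263 and 264 CPM with rhSP-D. These groups overlapped, and the means differed by 2.84%. The 16 variant genes summed to 2135, 2152 and 2135 CPM with vehicle and 2222, 2205 and 2237 CPM with rhSP-D, a difference of 3.76% with no overlap. The sum of the 5 epithelial markers differed by 4.56%, also with all rhSP-D libraries above all vehicle libraries. Of the 5, KRT7 rose by 11.5% and KRT18 by 3.45%, and the other 3 were not called. The log2 change was above 0 for 4 of these markers and below 0 for 1 (-0.06). Their part in the result was not tested.

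The scaling bore on these sums. With library totals in place of TMM factors the log2 ratio of the HIST sum went from 0.04 to -0.000451 and that of the variant sum from 0.05 to 0.01, and the median over all genes went from -0.01 to -0.05. Within the HIST genes, the H1 sum differed by 9.18% and was higher in all rhSP-D libraries, and the H2A sum differed by 6.37%, the H2B sum by 0.0114%, the H3 sum by -8.51% and the H4 sum by -1.88%, the last 4 with overlapping groups. The H1 sum is almost wholly HIST1H1C. Among the variants the H1 sum differed by 1.27%, the H2A sum by 4.38% and the H3 sum by 4.60%, each without overlap. With library totals the sums of HIST H2B and variant H1 turned lower in rhSP-D, and the groups of HIST H1, variant H2A and variant H3 overlapped, while the sum over all variants kept its groups apart.

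**Figure D4:**
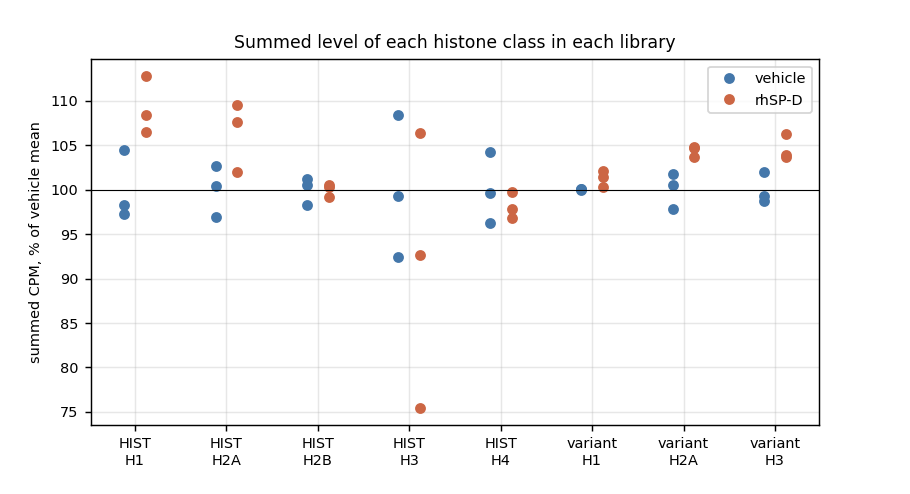
Summed CPM of each class of histone gene in each library (y axis, as a percentage of the vehicle mean), with 1 point for each of 3 vehicle and 3 rhSP-D libraries, under TMM scaling. The variant classes and HIST H1 are higher in all rhSP-D libraries and the other HIST classes overlap; with library totals the groups of HIST H1, variant H2A and variant H3 overlap and variant H1 turns lower.

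The annotated 3′ ends were set beside the HIST levels, as a description. A model that runs on for 100 or more bases past the stem-loop was found for 23 HIST genes, and 9 carried the stem-loop with less than that behind it. Of the 23, 14 were tested, and their median level was 0.818 CPM per kilobase of exon. Of the 9, 4 were tested, with a median of 0.876 CPM per kilobase. The other 41 HIST genes with a model showed no stem-loop letters, many of them because the model ends with the coding sequence, and had a median of 0.121 CPM per kilobase.

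A poly(A) signal (AATAAA or ATTAAA in the last 40 bases of a transcript) was found in 24 of 73 matched HIST genes, against 80.7% of all protein-coding genes. Of those 24 genes 17 were tested, and of the 49 without one 7 were. The 49 include the 32 HIST genes whose longest model is coding sequence only, so that the bases searched are coding. These 32 are not shown to lack a signal, and all 24 are among the 41 whose models hold more. Of the 10 most counted HIST genes 6 had a model that runs on past the stem-loop, to 1128 bases after it in HIST1H2AC, 1655 in HIST1H4H and 1729 in HIST2H2BE. In another 2, HIST1H2BD and HIST2H2AA4, the transcripts that hold the stem-loop end 39 and 35 bases after it, and HIST1H2BK and HIST1H1C have coding models only. HIST1H2BD has a further transcript, without the stem-loop, that reaches the gene's end at position 26171349 of chromosome 6. The classes above count only transcripts that hold the stem-loop. Such models rest in part on RNA seen in other cells, and the count table does not show where in a gene the reads lay.

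**Figure D5:**
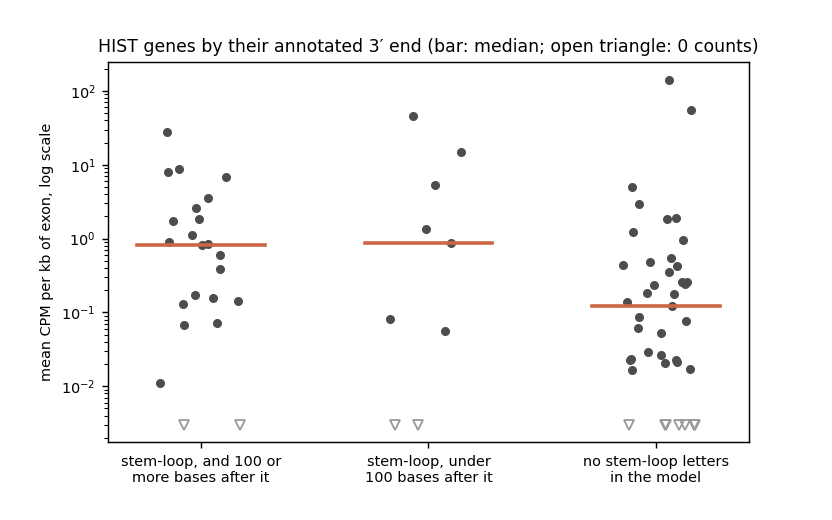
Mean level over the 6 libraries (y axis, CPM per kilobase of exon, log scale) of 73 HIST genes with a GENCODE 29 model, by the annotated 3′ end; bars are medians and open triangles genes with 0 counts. The medians of the 2 classes with a stem-loop are 0.818 and 0.876, and that of the class without the letters is 0.121. Undivided by length, the medians of the 2 stem-loop classes are, in the same order, 1.06 and 0.427 CPM. The highest gene, HIST1H2BK, is in the class without the letters, as its model is coding sequence only.

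Many H2A and H2B genes stand head to head and share the region between their starts. Of 12 such pairs within 500 bases, 11 joined an H2A with an H2B gene. In 3 pairs both genes were tested, in 4 pairs 1 was, and in 5 neither was. HIST1H2AC and HIST1H2BC are shown because, of the 3 pairs with both genes tested, their levels were the farthest apart: HIST1H2AC was at 44.0 to 49.5 CPM over the 6 libraries and HIST1H2BC at 0.502 to 1.09 CPM. Per kilobase of exon the means were 27.8 and 0.843 CPM, a ratio of 33.0. The 218 bases between them, chr6:26123927-26124144, are given on the plus strand from the RefSeq table (GRCh38.p14), with HIST1H2BC to the left and HIST1H2AC to the right.

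HIST1H2BC to HIST1H2AC: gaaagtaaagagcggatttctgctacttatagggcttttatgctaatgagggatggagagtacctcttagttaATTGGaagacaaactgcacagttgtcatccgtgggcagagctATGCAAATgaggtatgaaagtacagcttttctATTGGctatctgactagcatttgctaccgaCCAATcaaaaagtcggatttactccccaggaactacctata

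Capitals mark 1 octamer (ATTTGCAT, here as its reverse complement) and 3 CCAAT boxes, each read on both strands. TATAAA was searched as well: the window ends within one, whose first 4 letters are its last, and which is whole in the RefSeq promoter of HIST1H2AC, where the start lies further to the right. The octamer is the element known from H2B promoters. In the 300 bases around each annotated start (250 before and 50 after), the octamer was found in 21 of 60 HIST genes with an entry, among them 11 of 16 H2A and 9 of 13 H2B genes, and in 1 of 14 variant genes, against 1.8% of all 27305 promoters in the table. CCAAT was found in 50 of 60 HIST and 11 of 14 variant genes, against 35.7% of all. TATAAA was found in 40 of 60 HIST and 4 of 14 variant genes, against 12% of all. These promoters are not all separate regions. HIST1H3D and HIST1H2AD have the same entry, and head-to-head genes such as HIST1H2AG and HIST1H2BJ overlap in theirs, so the same match can count for both genes. A match is a description of the letters and not a bound site.

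The other pairs with both genes tested were closer. HIST2H2BE and HIST2H2AC lay at 3.57 and 2.96 CPM per kilobase, and HIST1H2BJ and HIST1H2AG at 1.82 and 1.84. None of these 6 genes passed edgeR's test. HIST3H2A was at 7.91 CPM per kilobase and its partner HIST3H2BB, not tested, at 0.0669. HIST1H2BK was at 142 CPM per kilobase of its coding model, and its partner HIST1H2AH had 1 count over the 6 libraries.

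Genes that make, process and handle histones were counted as lists. Of 22 genes of histone RNA transcription and processing, all tested, 2 rose and 3 fell, with a median log2 change of -0.05, where 9.31% of all genes tested rose and 6.63% fell. SLBP, the stem-loop binding protein, was at 37.1, 37.0 and 39.4 CPM with vehicle and 38.3, 39.5 and 38.6 CPM with rhSP-D and did not pass (log2 change 0.03, edgeR adjusted p = 0.745). NPAT, which activates histone gene transcription in S phase, did not either (log2 change -0.07, edgeR adjusted p = 0.784). NCBP1, a subunit of the nuclear cap-binding complex, fell by 14.4% (log2 change -0.22, edgeR adjusted p = 0.00217), a call lost after thinning to 1 depth (-0.15, adjusted p = 0.111). SRRT, which joins that complex to 3′ end processing, rose by 8.91% (log2 change 0.12, adjusted p = 0.00225).

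The other 3 that passed were CPSF2 and ERI1, which fell, and CPSF3, which rose. CPSF2 and CPSF3 are partner subunits of the complex that cuts histone pre-mRNA, with CPSF3 the endonuclease, and they moved in opposite directions (log2 changes -0.15 and 0.13, edgeR adjusted p = 0.0091 and 0.0445). The call of CPSF3 held in 9 of 17 alternatives and was lost without vehicle replicate 1 or 3 or rhSP-D replicate 2 or 3 (adjusted p = 0.0643, 0.273, 0.103 and 0.199). That of CPSF2 was lost with the length and GC offsets (-0.03, adjusted p = 0.744) and without vehicle replicate 3 (-0.14, adjusted p = 0.0548). ERI1, a 3′ exonuclease that acts on the stem-loop, fell by 13.3% (log2 change -0.21, edgeR adjusted p = 0.0105). Its call was lost with the same offsets (-0.12, adjusted p = 0.196), without vehicle replicate 2 (-0.18, adjusted p = 0.0564) and in DESeq2 (-0.21, adjusted p = 0.0501).

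Of 27 chaperones and exchange factors, all tested, 2 rose and 2 fell, with a median log2 change of -0.000502 (15.9% of all genes tested were called). The chaperones NAP1L1 and NAP1L4, which carry H2A with H2B, rose (log2 changes 0.10 for both, edgeR adjusted p = 0.0012 and 0.0186). The call of NAP1L1 was lost with library totals (0.06, adjusted p = 0.0536). That of NAP1L4 held in 11 of 17 alternatives and was lost without vehicle replicate 2 or rhSP-D replicate 1 or 2 (adjusted p = 0.12, 0.0605 and 0.0689). EP400 and SRCAP, the motors of the complexes that place H2A.Z, fell (log2 changes -0.24 and -0.11, edgeR adjusted p = 1.36e-04 and 0.0105). SRCAP kept its call in 13 of 17 alternatives and lost it without vehicle replicate 3 or rhSP-D replicate 3 (adjusted p = 0.0738 and 0.0679).

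Of 18 S phase genes, all tested, 1 rose and 4 fell, with a median log2 change of -0.06, beside the 9.31% and 6.63% of all genes tested. PCNA, the sliding clamp of replication, rose by 9.25%, while MCM4, a helicase subunit, UHRF1, which recruits maintenance DNA methylation, and CDC6, which loads the helicase, fell by 13.3%, 14.1% and 13.8% (log2 changes 0.13, -0.21, -0.22 and -0.21, edgeR adjusted p = 8.12e-05, 2.17e-05, 9.29e-04 and 0.00378). The fourth that fell was RRM2, whose call held in 13 of 17 alternatives. Its losses include the runs without vehicle replicate 2 or rhSP-D replicate 1 (edgeR adjusted p = 0.116 and 0.129). CENPA, the centromeric H3 that the symbol rule does not take, was at 25.7 to 27.2 CPM and did not pass (log2 change -0.01, edgeR adjusted p = 0.905). In bulk RNA, fewer cells in S phase and less of these RNAs per cell cannot be told apart.

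Total counts were 11396193 to 26030880 per library, with vehicle replicate 1 the shallowest and apart on the first principal component (-38.2, against 3.59 to 12.3 for the others). Keratins KRT7, KRT8 and KRT18 were at 2716 CPM or more in every library. The rise of KRT7 held in 17 of 17 alternatives and that of KRT18 in 11. Of 6 alveolar type II markers only ABCA3 and LPCAT1 were tested, and SFTPA1, SFTPB, SFTPC and NKX2-1 were at or near 0. Summed markers were at 1.17 to 2.31 CPM for fibroblasts, 3.38 to 4.61 CPM for leukocytes and 0 to 0.117 CPM for endothelium, with both groups overlapping in each.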

How the data were processed

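RNA was measured by paired-end sequencing of poly(A) RNA in 6 A549 samples, grouped by their titles. The submitters' processing notes name the build GRCh38 (hg38) and the tools cutadapt, STAR (2.7.0a) and featureCounts (2.0.0). For strand, for reads that map to several places and for the annotation release, the setting was not given in the sources used here. As deposited, the table holds raw integer counts for 57773 Ensembl genes, as the authors' counting made them. No column was left out.

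The groups' counts were tested in R 4.3.3 by edgeR 4.0.16: filterByExpr (minimum count 10, minimum total 15), TMM factors, a robust quasi-likelihood fit tested 2-sided, and Benjamini-Hochberg adjustment over all 15848 genes tested. A gene was called at an adjusted p under 0.05, and only then said to have risen or fallen. CPM are counts scaled by the TMM-adjusted library size. Sums of a class are described and not tested. On simulated data the procedure recovered 68% of genes changed 1.2-fold, the smallest change simulated, and called 11 unchanged genes. The called histone genes changed by under 15%, less than any change simulated.

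Members and lists were chosen with earlier results of these data known. Named were all called members, the 10 HIST and 10 variant genes of highest mean CPM, the 4 called genes of smallest p in each of 3 lists, and SLBP, NPAT and CENPA. Other names (members of copy pairs and of divergent pairs, stem-loop holders, CPSF3, RRM2, KRT7, KRT18) were chosen after their values were seen. Gene models came from GENCODE 29 and upstream sequences from a RefSeq table of GRCh38.p14. Of 92 members, 53 matched GENCODE 29 by identifier, 37 by a unique symbol and 2 not at all. A 50-base word was counted as shared where another gene's transcript holds it on either strand.

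Alternatives tried were scaling by library totals, by upper-quartile factors or by DESeq2 size factors, no filter, 1 CPM in 3 samples, a replicate block, thinning to 1 depth, offsets for gene length and GC content, DESeq2 1.42.0, limma-voom (limma 3.58.1), an adjusted p under 0.01 and each library left out. Summing near-identical copies was added after seeing the data.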

Additional observations from a re-analysis of the deposited data

How the results depend on the processing

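Of 655 values of 39 named genes under the alternatives, 599 stayed on their side of the threshold, 50 lost the call and 5 gained it. The sign differed from the reported one in 24 values of 13 genes, none of them called as reported; 23 of those values did not pass, and 1 did, HIST1H2BK with the length and GC offsets (log2 change -0.17). The rise of 1 HIST gene became 0 with upper-quartile factors, library totals, thinning to 1 depth, the length and GC offsets, DESeq2, limma-voom, an adjusted p under 0.01 and summed copies, and was 0 to 1 when each library was left out; the 1 gene without vehicle replicate 1 was HIST1H1C. The offsets gave 1 lower HIST gene in place of 0, HIST1H2BK, whose model is coding sequence only. Variant counts stayed at 2 to 4 higher and 1 lower in every alternative run. The log2 ratio of the HIST sum was -0.000451 with library totals, 0.0162 after thinning and 0.0309 to 0.0536 leaving out 1 library; that of the variant sum was 0.0123 with library totals and 0.0481 to 0.0585 leaving out 1 library.

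Over all genes 1475 were higher and 1051 lower. Library totals gave 856 and 1961, an adjusted p under 0.01 gave 939 and 526, and fewer were lower with the offsets (423) and DESeq2 (518). Leaving out 1 library gave 1042 to 1336 higher and 636 to 892 lower. The cause of these differences was not tested, except that a stricter threshold and fewer samples call fewer genes. Replicate numbers did not pair the samples: same-numbered deviations correlated at -0.0795, -0.0676 and 0.0268. With the replicate number as a block, 1374 genes were higher and 945 lower, with 1 HIST gene and 3 variant genes higher and 0 HIST genes and 1 variant gene lower. Of 75 HIST genes 49 did not pass the count filter, among them HIST2H3A with 194 counts, all in the 2 libraries where HIST2H3C had 0.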
